A study of Homo sapiens with 9 samples.

Results

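The SR protein genes, the heterogeneous nuclear ribonucleoprotein (hnRNP) genes and the muscleblind genes encode RNA-binding proteins that regulate splicing. They were taken as the protein-coding rows whose symbol was SRSF followed by a number, HNRNP followed by a letter, or MBNL1, MBNL2 or MBNL3. This gave 42 of the 58735 genes in the table, made up of 12 SRSF, 27 HNRNP and 3 MBNL genes. Of the 42 genes, 36 had enough counts to be tested and 6 did not.

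RNA of FaDu cells, an established cell line of human hypopharyngeal squamous cell carcinoma, was sequenced in bulk. The labels describe KD_OE as an AMIGO2 knockdown combined with CAPN2 overexpression, KD_NC as the AMIGO2 knockdown alone, and NC_NC as the normal control. Each of the 3 groups had 3 libraries, called biological replicates in the labels, and the labels name no other treatment. AMIGO2 encodes a cell-surface adhesion protein with leucine-rich repeats, and CAPN2 encodes the catalytic subunit of the calcium-activated protease m-calpain. The sources used here do not say how knockdown and overexpression were made, what the control cells carried or whether a group was 1 clone.

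SR proteins bind exonic enhancer sequences through RNA recognition motifs and recruit the spliceosome through domains rich in arginine and serine, so they mostly favour the inclusion of an exon. The hnRNPs coat nascent transcripts and often oppose that action, and the balance between both families shifts the choice of splice sites. Muscleblind proteins bind YGCY elements in introns and exons and drive switches from fetal to adult splicing. Many SR and hnRNP genes control their own output through exons that send the transcript to nonsense-mediated decay, and gene-level counts do not separate such transcripts from productive ones.

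Promoter windows of 5 genes are shown because the muscleblind genes and the G-run binding hnRNP genes HNRNPH1 and HNRNPF moved in different directions between the groups. RefSeq (GRCh38.p14) held a window for 38 of the 42 genes, and HNRNPA1, SRSF2, HNRNPA1P48 and HNRNPCL3 had none. Each window runs from 250 bases before to 50 bases after an annotated start, 5′ to 3′ on the strand of the gene, and the window nearest to the 5′ end of the gene was taken. The windows are chr3:152268679-152268978 on the plus strand for MBNL1, chr13:97222083-97222382 on the plus strand for MBNL2, chrX:132489986-132490285 on the minus strand for MBNL3, chr5:179634735-179635034 on the minus strand for HNRNPH1 and chr10:43408808-43409107 on the minus strand for HNRNPF. RefSeq held 3, 2, 4, 4 and 2 windows for these genes in the same order, and gene-level counts do not show which start was in use. Capitals mark matches on either strand to any of the 7 motifs listed after the sequences.
MBNL1: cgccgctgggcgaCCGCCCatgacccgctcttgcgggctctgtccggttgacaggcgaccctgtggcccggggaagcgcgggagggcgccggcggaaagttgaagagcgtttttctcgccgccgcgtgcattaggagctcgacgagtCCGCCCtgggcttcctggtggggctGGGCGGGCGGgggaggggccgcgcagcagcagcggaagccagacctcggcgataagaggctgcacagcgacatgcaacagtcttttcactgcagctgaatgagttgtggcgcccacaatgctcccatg
MBNL2: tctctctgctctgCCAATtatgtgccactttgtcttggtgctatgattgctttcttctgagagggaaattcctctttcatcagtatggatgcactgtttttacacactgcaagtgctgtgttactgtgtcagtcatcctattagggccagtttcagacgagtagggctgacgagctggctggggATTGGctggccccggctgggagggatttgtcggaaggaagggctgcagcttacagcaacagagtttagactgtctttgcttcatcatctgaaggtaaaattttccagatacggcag
MBNL3: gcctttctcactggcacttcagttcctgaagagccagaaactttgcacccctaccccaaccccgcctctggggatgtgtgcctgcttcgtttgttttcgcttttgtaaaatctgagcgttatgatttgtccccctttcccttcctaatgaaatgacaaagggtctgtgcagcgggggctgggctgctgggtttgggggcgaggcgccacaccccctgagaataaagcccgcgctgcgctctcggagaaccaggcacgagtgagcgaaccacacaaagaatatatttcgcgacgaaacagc
HNRNPH1: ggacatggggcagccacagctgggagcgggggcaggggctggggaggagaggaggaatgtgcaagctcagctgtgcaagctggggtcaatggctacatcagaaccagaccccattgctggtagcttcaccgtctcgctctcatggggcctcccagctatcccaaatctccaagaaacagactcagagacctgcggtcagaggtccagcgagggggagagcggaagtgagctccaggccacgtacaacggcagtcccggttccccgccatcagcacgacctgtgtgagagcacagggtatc
HNRNPF: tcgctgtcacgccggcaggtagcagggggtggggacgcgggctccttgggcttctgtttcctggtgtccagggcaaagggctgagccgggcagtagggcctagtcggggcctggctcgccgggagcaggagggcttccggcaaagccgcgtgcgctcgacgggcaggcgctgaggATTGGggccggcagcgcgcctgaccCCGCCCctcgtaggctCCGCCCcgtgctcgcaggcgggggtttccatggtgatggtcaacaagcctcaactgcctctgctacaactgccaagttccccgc

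The motifs searched on both strands were TATAAA (the TATA box), CCAAT (the CCAAT box), GGGCGG (the GC box), CCGGAAGT (an ETS factor site), TGACGTCA (the cyclic AMP response element), TGATGNAAT (an ATF4 site) and CACGTG (the E-box). Matches may overlap, as a pair of GC boxes in the MBNL1 window does. The MBNL1 window held 4 matches to the GC box and the HNRNPF window held 2 such matches and 1 match to the CCAAT box. The MBNL2 window held 2 matches to the CCAAT box. None of the 7 motifs was found in the MBNL3 and HNRNPH1 windows, which says only that these letters are not there. Among the 38 windows of the splicing factor genes, the CCAAT box was in 52.6% against 34.6% of all 35114 windows, the GC box was in 57.9% against 45.0%, and the E-box was in 18.4% against 7.26%. The TATA box was in 10.5% of the splicing factor windows and 11.5% of all windows, and the ETS site in 7.89% and 4.14%. The cyclic AMP response element and the ATF4 site were in none of the 38 windows, against 1.85% and 0.991% of all windows. The 38 windows were 1 per gene, at the start nearest to its 5′ end, while the 35114 windows include further starts of the same genes. These shares were not tested and describe letters, not binding.

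The libraries held 15158607 to 19737562 counts. Between libraries of 1 group, correlations of log2 levels across genes were 0.984 to 0.990, and between groups they were 0.945 to 0.976, with genes not being independent replicates. Levels are given as CPM, counts scaled to a common library size, after normalisation by trimmed mean of M values (TMM), differences as log2 fold change ± SE, and a gene was called at an adjusted p under 0.05 in edgeR's quasi-likelihood test over 16812 genes. AMIGO2 stood at 42.7, 35.2 and 38.7 CPM in the KD_OE libraries, 24.4, 31.2 and 27.3 CPM in the KD_NC libraries and 29.4, 26.1 and 27.1 CPM in the NC_NC libraries. Its level in KD_NC did not differ from NC_NC beyond the spread (log2 fold change 0.01, adjusted p = 0.971) and it was higher in KD_OE than in NC_NC (0.50, adjusted p = 0.00106), so the AMIGO2 transcript goes against the knockdown label and the groups are called by their labels throughout. CAPN2 averaged 498 ± 1.3 CPM in KD_OE, 417 ± 20.4 CPM in KD_NC and 462 ± 13.9 CPM in NC_NC (SD, n = 3), and was called higher in KD_OE than in KD_NC (0.26, adjusted p = 0.012) but not than in NC_NC (0.11, adjusted p = 0.254). All 10 squamous epithelial markers were tested and summed to 5361 to 5978 CPM in KD_OE, 4781 to 5886 CPM in KD_NC and 9086 to 9575 CPM in NC_NC. KRT5 alone averaged 1613 ± 121 CPM in KD_OE, 1205 ± 180 CPM in KD_NC and 4430 ± 133 CPM in NC_NC. The markers moved in both directions, with 6 called lower and 2 higher in KD_OE, and 8 lower and 1 higher in KD_NC, against NC_NC. CDH1, for example, averaged 613 ± 15.8 CPM in KD_OE and 380 ± 6.4 CPM in NC_NC. Summed fibroblast, endothelial and immune markers reached at most 49.5 CPM in any library, 4 of these 20 markers (PDGFRA, LUM, KDR and MS4A1) were at 0 in every library, and PTPRC and PECAM1 did not pass 0.349 CPM. CDH5, on the endothelial list, averaged 13.6 ± 0.481 CPM in KD_OE, 43.1 ± 2.92 CPM in KD_NC and 14.8 ± 2.4 CPM in NC_NC, and CD14, on the immune list, averaged 7.32 ± 1.72, 22.4 ± 3.55 and 16 ± 2.14 CPM in these groups, and their part in the results was not tested. Mitochondrial ribosomal RNA took 1.02 to 1.05% of the counts in KD_OE, 0.877 to 1.08% in KD_NC and 0.537 to 0.583% in NC_NC, and the part of this difference and of the squamous marker difference in the results on splicing factors was not tested.

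Most hnRNP genes were lower in the libraries labelled KD_OE and KD_NC than in the control libraries, most SR genes were lower in KD_OE than in either other group, and the muscleblind genes followed patterns of their own. The 27 HNRNP genes summed to 5796 ± 46.6 CPM in KD_OE, 6835 ± 464 CPM in KD_NC and 9225 ± 201 CPM in NC_NC (SD, n = 3). The 12 SRSF genes summed to 2182 ± 111 CPM in KD_OE, 2405 ± 171 CPM in KD_NC and 2502 ± 15.6 CPM in NC_NC. The hnRNP sums of the 3 groups did not overlap, while the SRSF sums of KD_NC overlapped with those of both other groups. The 3 MBNL genes summed to 425 ± 47.2 CPM in KD_OE, 300 ± 38.6 CPM in KD_NC and 317 ± 41.1 CPM in NC_NC, with the KD_OE libraries above all others. In bulk RNA, fewer cells of a kind and less RNA per cell cannot be told apart, and the sums carry no test because the genes were chosen with earlier results known.

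**Figure D1:**
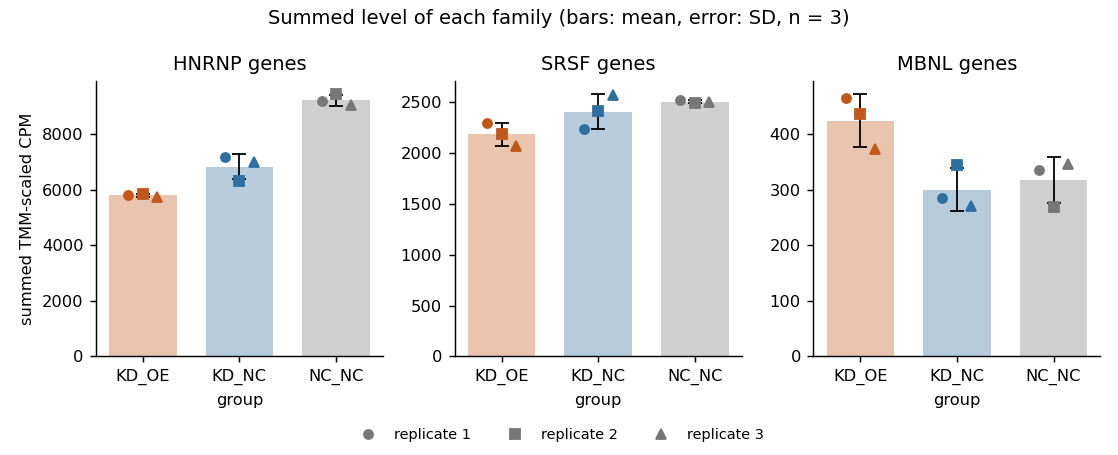
Summed TMM-scaled CPM of the 27 HNRNP, 12 SRSF and 3 MBNL genes in each group, with bars for the mean, error bars for the SD and points for the 3 libraries. The hnRNP sum was 5796 CPM in KD_OE, 6835 CPM in KD_NC and 9225 CPM in NC_NC, and no library of 1 group reached the range of another.

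In KD_NC against NC_NC, 20 of the 36 tested genes were called lower (55.6%), against 18.5% of all genes tested, and 1 gene was called higher (2.78%), against 16.0% of all genes tested. Their median log2 fold change was -0.30, with a median of -0.01 over all genes. In KD_OE against KD_NC, 20 were called lower (55.6%), against 25.6% of all genes, and 6 were called higher (16.7%), against 23.7%, with a median of -0.26 and 0.01 over all genes. In KD_OE against NC_NC, 24 were called lower (66.7%), against 28.4% of all genes, and 4 were called higher (11.1%), against 27.9%, with a median of -0.55 and 0.02 over all genes. Splicing factor genes are abundant, and 30 of the 42 genes averaged at least 50 CPM. Of the 4531 genes at or above that level, 30.2%, 40.3% and 45.8% were called lower in the 3 comparisons in this order, with medians of -0.06, -0.13 and -0.17. The 3 comparisons share libraries and are not independent of each other.

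**Figure D2:**
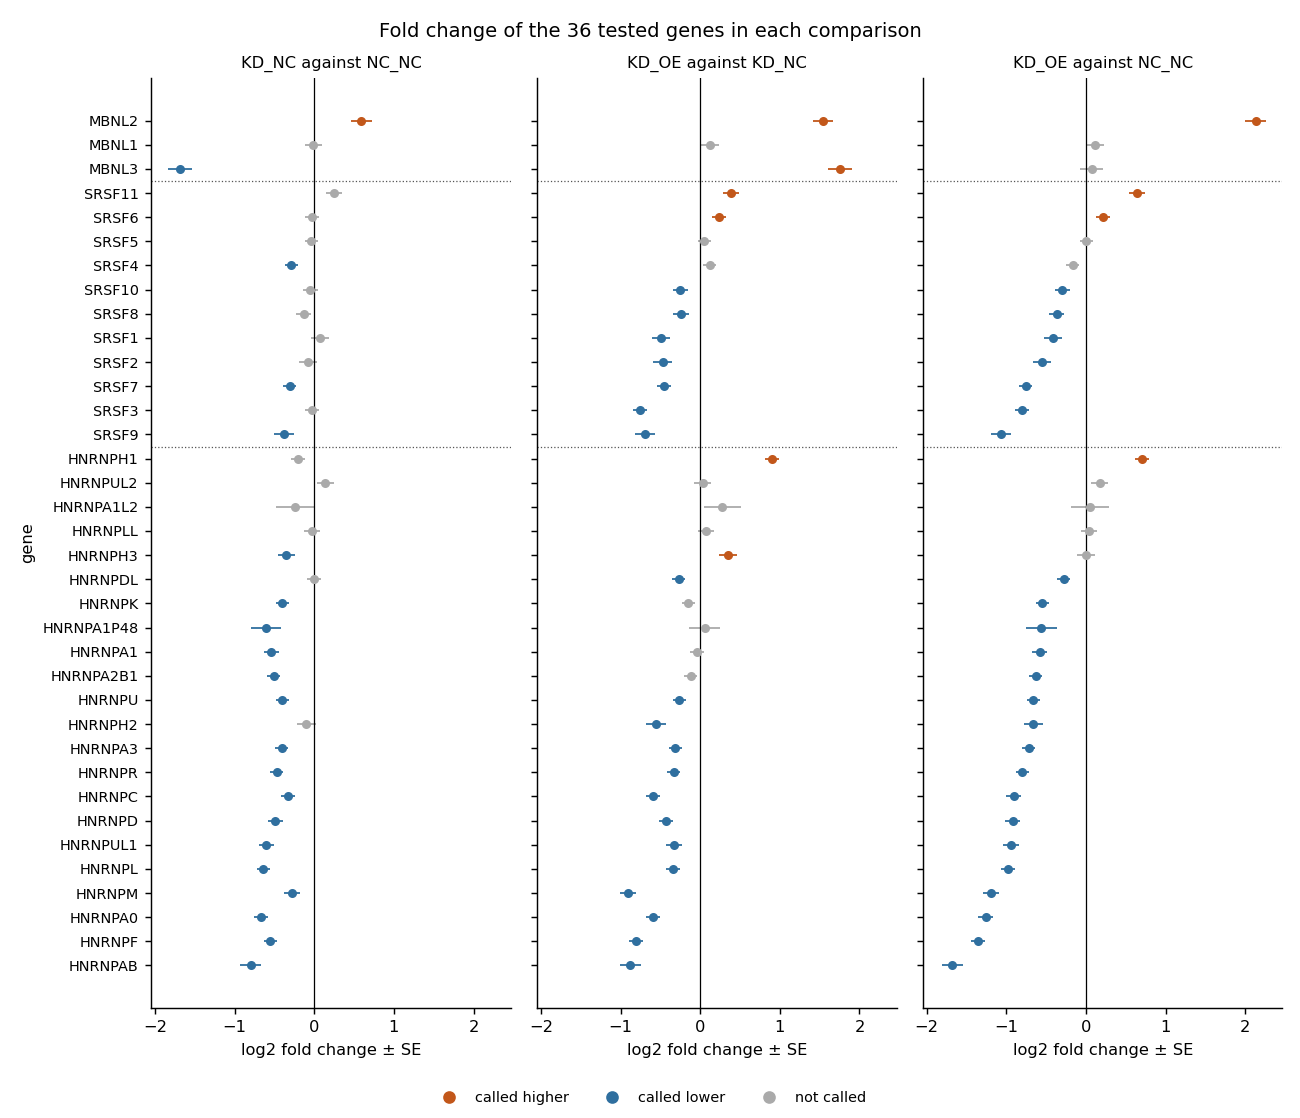
Log2 fold change with its SE for the 36 tested genes in the 3 comparisons, coloured by call, with muscleblind genes on top, SR genes in the middle and hnRNP genes below. Most hnRNP points lie left of 0, HNRNPH1 lies at 0.90 and 0.70 in the KD_OE comparisons, MBNL2 reaches 2.13, and MBNL3 lies at -1.69 in KD_NC against NC_NC and at 1.76 in KD_OE against KD_NC.

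MBNL2, one of the muscleblind splicing regulators, had the largest called rise of the 36 genes in KD_NC and in KD_OE against NC_NC. It stood at 119, 116 and 100 CPM in the KD_OE libraries, against 34.0, 46.2 and 35.2 CPM in KD_NC and 27.4, 21.2 and 27.9 CPM in NC_NC. The 3 groups did not overlap, and every KD_OE library was above every other library by a wide margin. The log2 fold change was 1.54 ± 0.126 in KD_OE against KD_NC (adjusted p = 1.31e-08), 0.59 ± 0.131 in KD_NC against NC_NC (adjusted p = 0.00165) and 2.13 ± 0.131 in KD_OE against NC_NC (adjusted p = 1.64e-10). MBNL2 (ENSG00000139793) lies on chromosome 13 from 97221434 to 97394120 (GRCh38).

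MBNL3, the muscleblind gene on the X chromosome (ENSG00000076770, 132369317 to 132489968), was lowest in the libraries labelled KD_NC. Its levels were 45.1, 44.2 and 39.9 CPM in KD_OE, 13.1, 15.3 and 9.59 CPM in KD_NC and 44.1, 33.1 and 45.9 CPM in NC_NC. All 3 KD_NC libraries were below the other 6, and KD_OE and NC_NC overlapped. MBNL3 rose in KD_OE against KD_NC (1.76 ± 0.151, adjusted p = 2.24e-08) and fell in KD_NC against NC_NC (-1.69 ± 0.151, adjusted p = 1.09e-07), and in KD_OE against NC_NC it was not called (0.07 ± 0.141, adjusted p = 0.687). With a correction for GC content and length its KD_OE against NC_NC value was -0.59 (adjusted p = 2.35e-05), so the direction of that comparison depends on the correction.

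MBNL1, the main muscleblind gene of most tissues (ENSG00000152601, chromosome 3 from 152243828 to 152465780), was not called in any comparison. It was measured at 302, 276 and 233 CPM in KD_OE, 239, 283 and 226 CPM in KD_NC and 263, 216 and 273 CPM in NC_NC, and all groups overlapped. With the GC and length correction it was called lower in KD_NC (-0.21, adjusted p = 0.0213) and in KD_OE (-0.32, adjusted p = 0.000436) than in NC_NC. Per kilobase of exon, MBNL1 made up 50.6 ± 1.22% of the summed muscleblind level in KD_OE, 73.9 ± 1.16% in KD_NC and 74.6 ± 0.716% in NC_NC. The MBNL2 share was 42.7 ± 0.949% in KD_OE, 23.1 ± 1.26% in KD_NC and 15.4 ± 0.307% in NC_NC, and the MBNL3 share was 6.64 ± 0.305%, 3.05 ± 0.423% and 9.96 ± 0.433% in the same groups (SD, n = 3). The MBNL2 share came closest to the MBNL1 share in KD_OE, and no shares of MBNL2 or MBNL3 overlapped between groups.

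**Figure D3:**
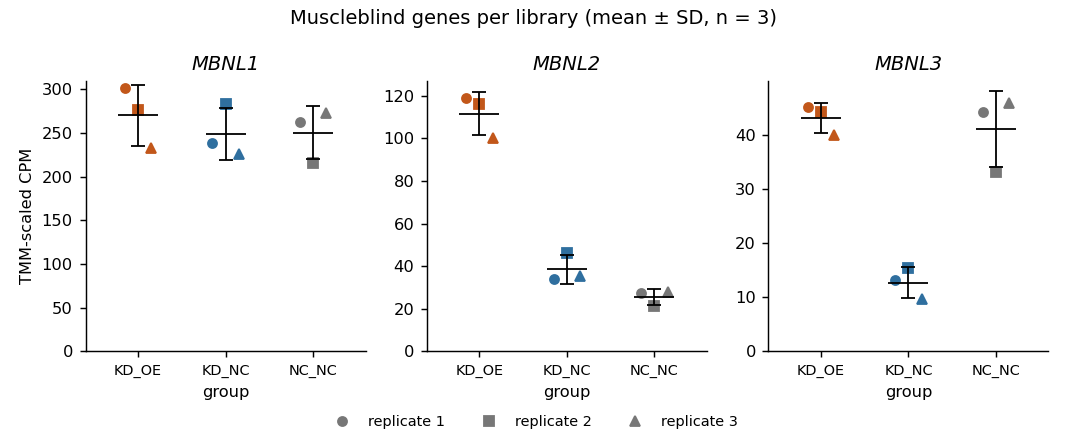
TMM-scaled CPM of MBNL1, MBNL2 and MBNL3 in each library, with the mean and SD of each group of 3. MBNL2 sits at 100 to 119 CPM in KD_OE and at most 46.2 CPM elsewhere, and MBNL3 sits at 9.59 to 15.3 CPM in KD_NC and at least 33.1 CPM elsewhere.

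Among the 22 tested hnRNP genes, 16 fell and none rose in KD_NC against NC_NC, 13 fell and 2 rose in KD_OE against KD_NC, and 17 fell and 1 rose in KD_OE against NC_NC. Falls made up 72.7%, 59.1% and 77.3%, against 18.5%, 25.6% and 28.4% of all genes tested. Among genes averaging at least 50 CPM, 30.2%, 40.3% and 45.8% fell. Rises made up 0%, 9.09% and 4.55% of the hnRNP genes, against 16.0%, 23.7% and 27.9% of all genes tested. The median log2 fold changes of the hnRNP genes were -0.41, -0.29 and -0.66 in these comparisons. Per kilobase of exon, HNRNPA1 was the most abundant of the 42 genes in KD_OE, at 112 ± 2.18 CPM per kilobase, and HNRNPF was at 70.3 ± 1.73 there. In KD_NC, HNRNPF with 123 ± 10.5, HNRNPK with 116 ± 8.03 and HNRNPA1 with 115 ± 15.2 CPM per kilobase lay within their spread of each other. In NC_NC, HNRNPF was the most abundant at 180 ± 7.23 CPM per kilobase, followed by HNRNPA1 at 168 ± 5.81. HNRNPA2B1 was at 81.2 ± 3.96 CPM per kilobase in KD_OE and 125 ± 2.22 in NC_NC (SD, n = 3).

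HNRNPAB, which encodes a nuclear and cytoplasmic RNA-binding protein of the A/B group, had the largest fall of the 36 genes in KD_OE against NC_NC. It stood at 68.6, 78.0 and 89.3 CPM in KD_OE, 177, 116 and 143 CPM in KD_NC and 243, 280 and 234 CPM in NC_NC. The groups formed 3 steps without overlap, with the KD_NC libraries the most spread. HNRNPAB fell in every comparison, with log2 fold changes of -0.88 ± 0.131 in KD_OE against KD_NC (adjusted p = 2.06e-05), -0.80 ± 0.129 in KD_NC against NC_NC (adjusted p = 0.000118) and -1.68 ± 0.133 in KD_OE against NC_NC (adjusted p = 5.61e-09). It shares 196 exon bases with PHYKPL on the other strand, a gene with 20.0% of its counts, and reads there cannot be told apart.

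HNRNPA0, an intronless gene whose protein binds AU-rich elements, formed the same 3 steps. Its levels were 140, 137 and 140 CPM in KD_OE, 218, 187 and 225 CPM in KD_NC and 320, 364 and 319 CPM in NC_NC. No groups overlapped, and HNRNPA0 fell with log2 fold changes of -0.59 ± 0.091 in KD_OE against KD_NC (adjusted p = 2.49e-05), -0.67 ± 0.090 in KD_NC against NC_NC (adjusted p = 1.52e-05) and -1.26 ± 0.092 in KD_OE against NC_NC (adjusted p = 1.36e-09). The abundant A/B genes HNRNPA1 and HNRNPA2B1, whose proteins repress exons by binding UAG-containing sites, separated the control libraries from the rest. HNRNPA1 averaged 571 ± 11.1 CPM in KD_OE, 586 ± 77.6 CPM in KD_NC and 853 ± 29.6 CPM in NC_NC, and it was called lower than NC_NC in KD_OE (-0.58) and KD_NC (-0.54) but not in KD_OE against KD_NC (-0.04, adjusted p = 0.771). HNRNPA2B1 averaged 752 ± 36.7 CPM in KD_OE, 817 ± 22.1 CPM in KD_NC and 1161 ± 20.6 CPM in NC_NC, with log2 fold changes of -0.12 (not called), -0.51 and -0.63 for KD_OE against KD_NC, KD_NC against NC_NC and KD_OE against NC_NC. HNRNPA3 fell in all 3 comparisons in the same order, with -0.31, -0.41 and -0.72. Corrected for GC content and length, HNRNPA2B1 was also called lower in KD_OE than in KD_NC (-0.33, adjusted p = 0.000702).

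Counts of the HNRNPA1 group are uncertain because near-identical copies exist. Of the 50-base stretches of HNRNPA1 transcripts, 23.0% recur in 58 other genes, and 17.3% of those of HNRNPA3 recur elsewhere. HNRNPA1P48 and HNRNPA1L2, protein-coding in this annotation and closely related to HNRNPA1, share 51.6% and 53.3% of theirs. HNRNPA1P48 had 4.62 to 11.1 CPM and was called lower than NC_NC in KD_NC (-0.61, adjusted p = 0.0173) and KD_OE (-0.56, adjusted p = 0.0184), and these calls were lost without KD_NC replicate 2 (-0.39), KD_OE replicate 2 (-0.44) or NC_NC replicate 2 (-0.50 and -0.45). HNRNPA1L2 had 3.10 to 5.78 CPM and was not called. HNRNPA2B1 shares 368 exon bases with CBX3 on the other strand, which has 25.7% of its counts.

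HNRNPF, HNRNPH1, HNRNPH2 and HNRNPH3 encode related proteins that bind runs of G, and they did not move together. HNRNPF stood at 229, 234 and 223 CPM in KD_OE, 437, 370 and 395 CPM in KD_NC and 570, 613 and 576 CPM in NC_NC, in 3 steps without overlap. The log2 fold change of HNRNPF was -0.81 ± 0.086 in KD_OE against KD_NC (adjusted p = 3.28e-07), -0.55 ± 0.085 in KD_NC against NC_NC (adjusted p = 6.41e-05) and -1.36 ± 0.086 in KD_OE against NC_NC (adjusted p = 2.51e-10). HNRNPH1 stood at 666, 638 and 599 CPM in KD_OE, against 339, 361 and 319 CPM in KD_NC and 421, 375 and 373 CPM in NC_NC. Every KD_OE library was above all others, and HNRNPH1 was the only hnRNP gene called higher in KD_OE against NC_NC.

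HNRNPH1 (ENSG00000169045, chromosome 5 from 179614178 to 179634784) rose by a log2 fold change of 0.90 ± 0.087 in KD_OE against KD_NC (adjusted p = 1.09e-07) and of 0.70 ± 0.087 in KD_OE against NC_NC (adjusted p = 1.28e-06), and was not called in KD_NC against NC_NC (-0.20 ± 0.087, adjusted p = 0.0874). With the GC and length correction it was still higher in KD_OE than in KD_NC (0.57, adjusted p = 4.31e-07), was no longer called in KD_OE against NC_NC (0.10, adjusted p = 0.231) and was called lower in KD_NC than in NC_NC (-0.48, adjusted p = 1.24e-05). HNRNPF (ENSG00000169813, chromosome 10 from 43385617 to 43409166) kept its 3 calls under all 16 alternatives, with a KD_OE against NC_NC range of -1.39 to -1.25. HNRNPH2 averaged 34.6 ± 6.5 CPM in KD_OE, 50.8 ± 4.86 CPM in KD_NC and 54.6 ± 4.52 CPM in NC_NC, and fell in KD_OE against KD_NC (-0.55, adjusted p = 0.00113) and against NC_NC (-0.66, adjusted p = 0.000175). HNRNPH3 averaged 112 ± 4.01 CPM in KD_OE, 87.4 ± 16.9 CPM in KD_NC and 112 ± 3.81 CPM in NC_NC. It was called higher in KD_OE than in KD_NC (0.35, adjusted p = 0.0114) and lower in KD_NC than in NC_NC (-0.35, adjusted p = 0.0168), and without KD_NC replicate 2, its lowest library at 74.2 CPM, both calls were lost (0.21 and -0.22). The first call was also lost without KD_NC replicate 3 or KD_OE replicate 1 (0.30 each), and the second without KD_NC replicate 3 (-0.31) or NC_NC replicate 1 (-0.33). It shares 115 exon bases with RUFY2 on the other strand, which has 22.1% of its counts.

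HNRNPM, which binds GU-rich sites and is known in breast cancer cells for opposing the epithelial splicing regulator ESRP1, fell mainly in KD_OE. It stood at 200, 215 and 244 CPM in KD_OE, 397, 366 and 475 CPM in KD_NC and 488, 520 and 495 CPM in NC_NC. All KD_OE libraries were below all others, and the highest KD_NC library came close to the lowest NC_NC library. HNRNPM fell with log2 fold changes of -0.91 ± 0.101 in KD_OE against KD_NC (adjusted p = 6.13e-07) and -1.19 ± 0.102 in KD_OE against NC_NC (adjusted p = 1.15e-08). The call in KD_NC against NC_NC (-0.28 ± 0.100, adjusted p = 0.0366) was lost under 10 of 16 alternatives, whose adjusted p ran between 0.00281 and 0.232. Leaving out any library other than KD_OE replicate 3 or KD_NC replicate 3 ended the call, with values of -0.30 to -0.17, the smallest without KD_NC replicate 2 (adjusted p = 0.211).

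HNRNPL, whose protein binds CA repeats, was at 110, 122 and 120 CPM in KD_OE, 158, 142 and 145 CPM in KD_NC and 234, 240 and 219 CPM in NC_NC, again without overlap between groups. Its log2 fold change was -0.34 ± 0.085 in KD_OE against KD_NC (adjusted p = 0.00273), -0.64 ± 0.084 in KD_NC against NC_NC (adjusted p = 1.23e-05) and -0.98 ± 0.085 in KD_OE against NC_NC (adjusted p = 1.46e-08). Its paralogue HNRNPLL, known for CD45 splicing in T cells, stayed between 34.7 and 42.2 CPM in all libraries and was not called, although the GC and length correction gave -0.27 in KD_NC (adjusted p = 0.0201) and -0.34 in KD_OE (adjusted p = 0.00292) against NC_NC.

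HNRNPC, HNRNPD, HNRNPR, HNRNPU and HNRNPUL1 were also called lower in every comparison. HNRNPC, which binds uridine tracts and keeps Alu elements out of mRNA, averaged 483 ± 17.5 CPM in KD_OE, 726 ± 68.9 CPM in KD_NC and 911 ± 52.7 CPM in NC_NC. HNRNPD, also known as AUF1, which binds AU-rich elements, averaged 184 ± 1.75, 249 ± 30.7 and 348 ± 14.6 CPM in the same groups. Their log2 fold changes in KD_OE against NC_NC were -0.91 ± 0.089 and -0.92 ± 0.093, and without NC_NC replicate 2 the HNRNPC value in KD_NC against NC_NC was -0.28 (adjusted p = 0.0557) and no longer called. HNRNPU, the scaffold attachment protein, averaged 603 ± 9.62 CPM in KD_OE, 723 ± 39.3 CPM in KD_NC and 954 ± 15.2 CPM in NC_NC. HNRNPR, a paralogue of SYNCRIP, had -0.80 ± 0.081 and HNRNPUL1, a relative of HNRNPU, had -0.94 ± 0.097 as log2 fold changes in KD_OE against NC_NC, and HNRNPUL1 shares 215 exon bases with TGFB1 on the other strand, which has 16.4% of its counts.

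HNRNPK, which binds C-rich sequence, averaged 535 ± 14.1 CPM in KD_OE, 593 ± 41.1 CPM in KD_NC and 783 ± 10.8 CPM in NC_NC. It was called lower than NC_NC in KD_OE (-0.55) and KD_NC (-0.40), and in KD_OE against KD_NC (-0.15, adjusted p = 0.144) it was called only without KD_NC replicate 2 (-0.23, adjusted p = 0.0224). HNRNPDL, a paralogue of HNRNPD, averaged 199 ± 8.48 CPM in KD_OE, 241 ± 16.0 CPM in KD_NC and 242 ± 5.94 CPM in NC_NC, and fell in KD_OE against KD_NC (-0.27, adjusted p = 0.0107) and against NC_NC (-0.28, adjusted p = 0.00833). With upper-quartile factors the HNRNPDL value against NC_NC was -0.17 (adjusted p = 0.0845). HNRNPUL2 was not called, at 24.6 to 31.5 CPM, and with upper-quartile factors or with the GC and length correction it was called higher in KD_OE than in NC_NC (0.28 and 0.27).

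**Figure D4:**
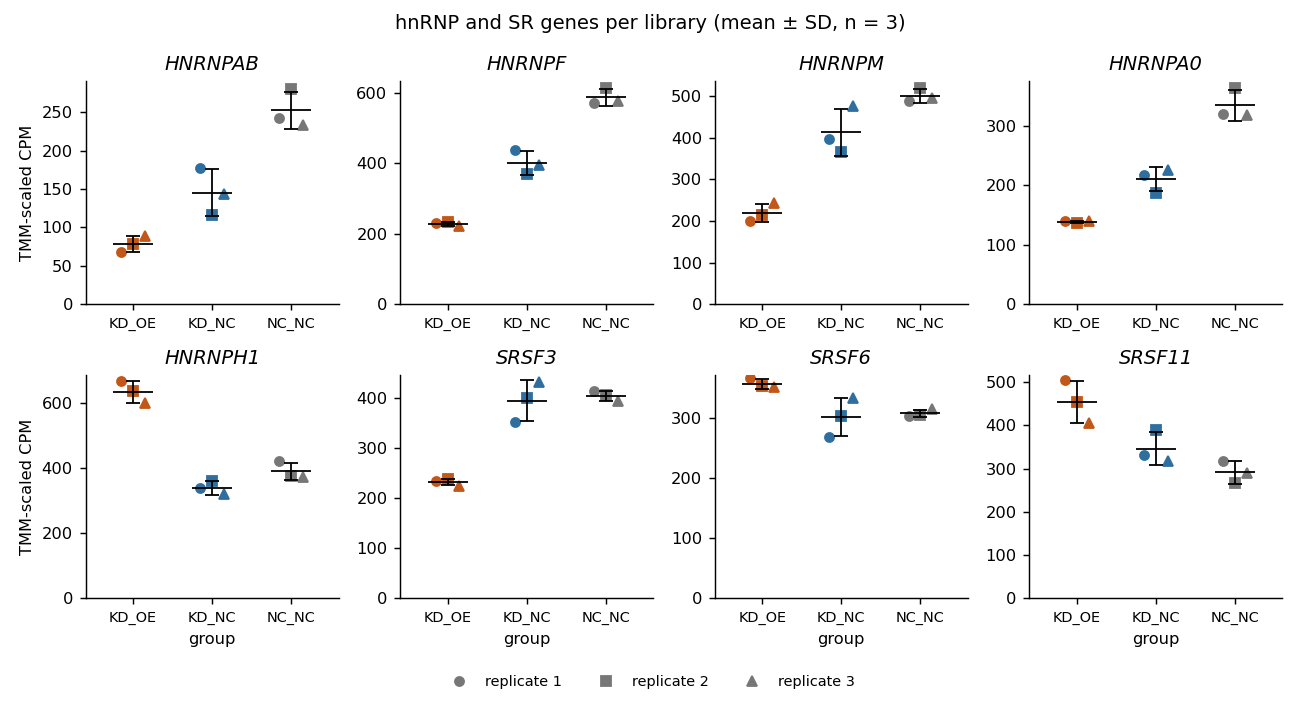
TMM-scaled CPM of 5 hnRNP and 3 SR genes in each library, with the mean and SD of each group of 3. HNRNPAB, HNRNPF and HNRNPA0 form 3 separate steps, HNRNPH1 lies at 599 to 666 CPM in KD_OE and at most 421 CPM elsewhere, and SRSF3 lies at 225 to 238 CPM in KD_OE and at least 353 CPM elsewhere.

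Among the 11 tested SR genes, 3 fell and none rose in KD_NC against NC_NC, while 7 fell and 2 rose in KD_OE against KD_NC and also in KD_OE against NC_NC. Falls made up 27.3%, 63.6% and 63.6%, against 18.5%, 25.6% and 28.4% of all genes tested. Among genes averaging at least 50 CPM, 30.2%, 40.3% and 45.8% fell, so the SR share in KD_NC against NC_NC was below theirs. Rises made up 0%, 18.2% and 18.2% of the SR genes, against 16.0%, 23.7% and 27.9% of all genes tested. The median log2 fold changes of the SR genes were -0.05, -0.25 and -0.37. SRSF3, the smallest SR protein, which also couples splicing to mRNA export, had the largest fall among them in KD_OE against KD_NC. It stood at 235, 238 and 225 CPM in KD_OE, 353, 401 and 433 CPM in KD_NC and 414, 407 and 394 CPM in NC_NC. The KD_OE libraries were below all others, and KD_NC and NC_NC overlapped. SRSF3 (ENSG00000112081, chromosome 6 from 36594353 to 36605600) fell with log2 fold changes of -0.76 ± 0.088 in KD_OE against KD_NC (adjusted p = 8.91e-07) and -0.80 ± 0.088 in KD_OE against NC_NC (adjusted p = 3.02e-07), and was not called in KD_NC against NC_NC (-0.03 ± 0.087, adjusted p = 0.797). Corrected for GC content and length, SRSF3 was called lower there (-0.25, adjusted p = 0.00963), and so were SRSF5 (-0.24), SRSF6, SRSF8 and SRSF10 (-0.25 each). The SRSF9 call there was lost, although its corrected value was -0.53 (adjusted p = 0.0631).

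SRSF1, the founding SR protein also known as ASF/SF2, and SRSF2, also known as SC35, followed SRSF3. SRSF1 averaged 90.7 ± 12.4 CPM in KD_OE, 127 ± 18.8 CPM in KD_NC and 121 ± 1.65 CPM in NC_NC, and it fell in KD_OE against KD_NC (-0.49, adjusted p = 0.00132) and against NC_NC (-0.41, adjusted p = 0.0039). SRSF2 averaged 207 ± 14.6 CPM in KD_OE, 286 ± 60.5 CPM in KD_NC and 304 ± 1.64 CPM in NC_NC, with log2 fold changes of -0.47 ± 0.116 in KD_OE against KD_NC and -0.55 ± 0.116 against NC_NC, and it shares 1106 exon bases with MFSD11 on the other strand, which has 8.91% of its counts. SRSF7, the SR protein with a zinc knuckle, fell in all 3 comparisons, with -0.45 ± 0.087 in KD_OE against KD_NC, -0.31 ± 0.086 in KD_NC against NC_NC and -0.76 ± 0.087 in KD_OE against NC_NC. Without KD_NC replicate 2 its KD_NC against NC_NC value was -0.23 (adjusted p = 0.0562).

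SRSF9 averaged 84.5 ± 6.23 CPM in KD_OE, 136 ± 29.1 CPM in KD_NC and 177 ± 12.8 CPM in NC_NC, and fell in KD_OE against NC_NC by 1.07 ± 0.123 on the log2 scale (adjusted p = 5.7e-07). In KD_NC against NC_NC its call (-0.38, adjusted p = 0.0208) was lost without KD_NC replicate 2 (-0.19, adjusted p = 0.156) and without NC_NC replicate 2 (-0.32, adjusted p = 0.097). It was also lost in a fit of those groups alone (-0.35, adjusted p = 0.053) and with the GC and length correction (-0.53, adjusted p = 0.0631). SRSF9 counts are uncertain, because it shares 1729 exon bases with GATC on the other strand, a gene with 34.0% of its counts. SRSF10, which represses splicing when dephosphorylated, and SRSF8 were called lower in KD_OE than in NC_NC, with log2 fold changes of -0.30 ± 0.094 and -0.37 ± 0.096. The SRSF10 call there was lost with upper-quartile factors (-0.20) and without KD_OE replicate 2 (-0.28) or KD_OE replicate 3 (-0.26). In KD_OE against KD_NC both were called (-0.25 for SRSF10, whose libraries overlapped, and -0.24 for SRSF8), and these calls were lost under 6 and 8 of 16 alternatives. Among these were KD_OE replicate 2 left out (-0.23 for both), KD_OE replicate 3 left out (-0.21 and -0.20), KD_NC replicate 2 left out for SRSF10 (-0.23), and KD_NC replicate 3, NC_NC replicate 1 or NC_NC replicate 3 left out for SRSF8 (-0.25 to -0.22).

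SRSF11, a protein rich in arginine and serine known for promoting neuronal microexons, was the SR gene with the largest rise in KD_OE. It stood at 504, 453 and 405 CPM in KD_OE, 331, 389 and 318 CPM in KD_NC and 318, 266 and 289 CPM in NC_NC. The KD_OE libraries were above all others, and the lowest KD_NC library was level with the highest NC_NC library. SRSF11 (ENSG00000116754, chromosome 1 from 70205682 to 70253052) rose by a log2 fold change of 0.39 ± 0.102 in KD_OE against KD_NC (adjusted p = 0.00361) and of 0.64 ± 0.103 in KD_OE against NC_NC (adjusted p = 2.8e-05). With the GC and length correction these values were 0.10 (adjusted p = 0.167) and 0.07 (adjusted p = 0.327), and without KD_OE replicate 1 the KD_OE against KD_NC value was 0.28 (adjusted p = 0.0518).

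SRSF4, SRSF5 and SRSF6 encode SR proteins with paired RNA recognition motifs and had the smallest differences of the SR genes in KD_OE against NC_NC. SRSF6 stood at 367, 353 and 352 CPM in KD_OE, 269, 304 and 333 CPM in KD_NC and 304, 306 and 315 CPM in NC_NC, with the KD_OE libraries above all others. Its calls in KD_OE against KD_NC (0.24 ± 0.087, adjusted p = 0.0266) and against NC_NC (0.21 ± 0.087, adjusted p = 0.0458) were lost under 9 and 10 of 16 alternatives, and the GC and length correction gave -0.06 against NC_NC (adjusted p = 0.429). Without KD_OE replicate 1 these values were 0.20 (adjusted p = 0.136) and 0.19 (adjusted p = 0.136), and leaving out any KD_OE library ended both calls. The first call also ended without KD_NC replicate 1 or 2 or NC_NC replicate 1 or 3 (0.16 to 0.23), and the second without any NC_NC library (0.19 to 0.22). SRSF5 averaged 345 ± 8.74 CPM in KD_OE, 334 ± 24.5 CPM in KD_NC and 344 ± 3.66 CPM in NC_NC and was not called, with -0.25 in KD_OE against NC_NC under the GC and length correction (adjusted p = 0.00656). SRSF4 averaged 116 ± 6.75 CPM in KD_OE, 107 ± 0.914 CPM in KD_NC and 131 ± 0.584 CPM in NC_NC, and fell in KD_NC against NC_NC (-0.29 ± 0.082, adjusted p = 0.0103), a call lost with no filter on low counts (-0.26, adjusted p = 0.0538). Its KD_OE against NC_NC value of -0.17 (adjusted p = 0.0842) was called without KD_NC replicate 1 or replicate 3 (-0.18 each), in a fit of those groups alone (-0.16) and with the GC and length correction (-0.52).

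**Figure D5:**
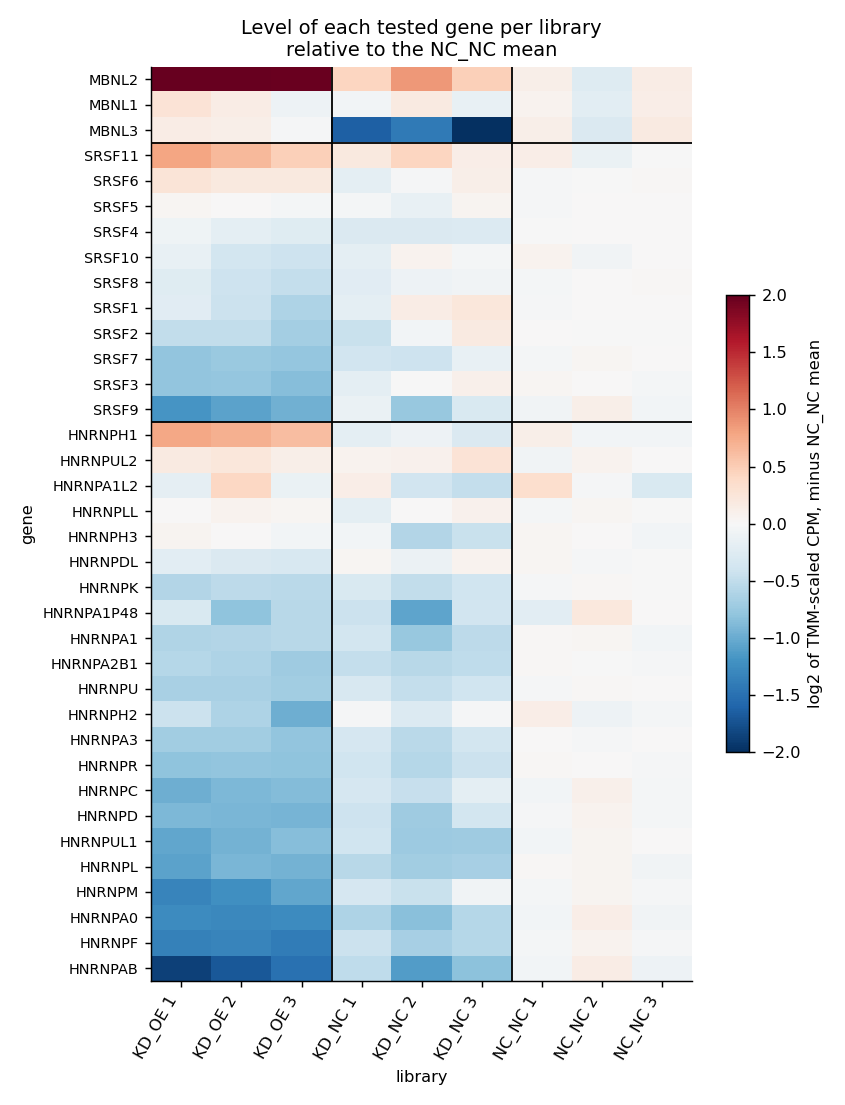
Log2 of TMM-scaled CPM minus the log2 NC_NC mean for the 36 tested genes (rows) in the 9 libraries (columns), with colours ending at 2 and -2. The blue of most hnRNP rows is darker in KD_OE than in KD_NC, and MBNL2, HNRNPH1 and SRSF11 are the reddest rows of KD_OE.

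Of the 6 genes that were not tested, SRSF12, a paralogue of SRSF10, had 3 to 19 counts per library, or 0.530 to 1.17 CPM in KD_OE, 0.233 to 0.596 CPM in KD_NC and 0.184 to 0.589 CPM in NC_NC. The HNRNPC-like genes HNRNPCL1, HNRNPCL2, HNRNPCL3 and HNRNPCL4 and the readthrough gene HNRNPUL2-BSCL2 had a count of 0 in every library, which allows up to 3 counts or 0.152 to 0.198 CPM per library. HNRNPCL1 to HNRNPCL4 share 53.9% to 94.0% of their 50-base stretches with other genes, and HNRNPUL2-BSCL2 shares 2391 exon bases with HNRNPUL2 on the same strand, so a count of 0 may not show that their transcripts were missing.

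Several results changed with a correction for GC content and length. The tested splicing factor genes had a median transcript GC content of 41.1%, against 48.1% for all genes tested. With the correction for GC content and length, 27 were called lower and 1 higher in KD_NC against NC_NC, 21 lower and 5 higher in KD_OE against KD_NC, and 29 lower and 2 higher in KD_OE against NC_NC. The balance over all genes also moved towards falls. Their calls went from 5812 to 6147, from 8278 to 9113 and from 9468 to 9780 in these comparisons. The share of these calls that were higher went from 46.4% to 43.3%, from 48.1% to 42.0% and from 49.6% to 42.5%. With the correction, the MBNL2 rise was called in all 3 comparisons, with log2 fold changes of 1.38 in KD_OE against KD_NC, 0.31 in KD_NC against NC_NC and 1.69 in KD_OE against NC_NC. Several falls were over 1.5 times as large with the correction on the log2 scale. In KD_OE against NC_NC these were HNRNPU (-1.42), HNRNPR (-1.42), HNRNPD (-1.46), HNRNPA3 (-1.18), HNRNPA2B1 (-1.04) and SRSF10 (-0.75). HNRNPU, HNRNPR, HNRNPD, HNRNPA3 and SRSF10 did so in KD_OE against KD_NC as well (-0.79, -0.66, -0.69, -0.51 and -0.50). In KD_NC against NC_NC these were HNRNPD (-0.77), HNRNPR (-0.76), HNRNPA3 (-0.67), HNRNPU (-0.62), HNRNPC (-0.54), SRSF7 (-0.49) and SRSF4 (-0.47).

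RNA levels of genes for the spliceosome itself were described with lists of other splicing genes, chosen with earlier results of these data known. In KD_OE against NC_NC, KD_OE against KD_NC and KD_NC against NC_NC, 28.4%, 25.6% and 18.5% of all genes tested were called lower. Those called higher were 27.9%, 23.7% and 16.0%. Among genes averaging at least 50 CPM, 45.8%, 40.3% and 30.2% were called lower and 25.6%, 23.1% and 18.3% higher. The lists were not tested against these shares. All 27 genes for proteins of the U1 and U2 particles and the Sm ring were tested. Of these, 21 fell and 4 rose in KD_OE against NC_NC (median -0.84). Falls and rises numbered 20 and 2 in KD_OE against KD_NC (median -0.66), and 9 and 4 in KD_NC against NC_NC (median -0.15). The 4 rises in KD_NC against NC_NC became 7 without KD_NC replicate 1, 2 without KD_OE replicate 2 or NC_NC replicate 3, and 1 without NC_NC replicate 2 or with the GC and length correction. In KD_OE against NC_NC that correction gave 2 rises in place of 4. SF3B4, a subunit of the branch site complex SF3B, averaged 92.9 ± 4.17 CPM in KD_OE and 196 ± 8.69 CPM in NC_NC (-1.08, adjusted p = 6.5e-09). The Sm protein gene SNRPB averaged 89.5 ± 4.40 CPM in KD_OE and 186 ± 34.1 CPM in KD_NC (-1.06, adjusted p = 3.41e-07). Another Sm protein gene, SNRPD3, fell by 1.15 ± 0.096 on the log2 scale in KD_OE against NC_NC, but shares 321 exon bases with GUCD1 on the other strand, which has 73.5% of its counts. The U1-associated gene LUC7L2 rose, at 141 ± 15.7 CPM in KD_OE, 86.9 ± 6.78 CPM in KD_NC and 72.4 ± 2.96 CPM in NC_NC, with 0.70 ± 0.097 and 0.97 ± 0.098 in KD_OE against KD_NC and NC_NC. In KD_NC against NC_NC, the SF3B subunit gene SF3B6 rose (0.63 ± 0.112) while SF3B3 fell (-0.55 ± 0.077).

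Of 22 genes for proteins of the tri-snRNP and the catalytic spliceosome, 17 fell and 3 rose in KD_OE against NC_NC. There were 12 falls and 1 rise in KD_OE against KD_NC, and 10 falls and no rise in KD_NC against NC_NC. The medians in this order were -0.46, -0.29 and -0.20. Over all genes tested, 28.4%, 25.6% and 18.5% fell and 27.9%, 23.7% and 16.0% rose in these comparisons. The 1 rise in KD_OE against KD_NC, PLRG1, was lost under 13 of 16 alternatives, and the 3 rises in KD_OE against NC_NC became 1 without KD_OE replicate 1 or NC_NC replicate 2 or with the GC and length correction. In KD_NC against NC_NC the 10 falls became 6 without KD_NC replicate 2, NC_NC replicate 2 or NC_NC replicate 3, and 2 genes rose without KD_NC replicate 1 and 1 without KD_OE replicate 1 or with upper-quartile factors, RLE factors or DESeq2. PRPF19, the ubiquitin ligase at the core of the Prp19 complex, averaged 110 ± 4.85 CPM in KD_OE, 145 ± 10.3 CPM in KD_NC and 249 ± 14.9 CPM in NC_NC and fell in KD_OE (-1.18 ± 0.088) and in KD_NC (-0.78 ± 0.087) against NC_NC. EFTUD2, the U5 GTPase, averaged 161 ± 2.71 CPM in KD_OE and 246 ± 15.6 CPM in KD_NC (-0.61, adjusted p = 5.66e-06). PRPF4 of the tri-snRNP fell by 1.18 ± 0.091 in KD_OE against KD_NC, and shares 208 exon bases with CDC26 on the other strand, which has 20.6% of its counts.

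Of 10 genes for SR protein kinases and for the importins TNPO1 and TNPO3, 4 rose and 2 fell in KD_OE against NC_NC. There were 5 rises and no fall in KD_OE against KD_NC, and 1 rise and 3 falls in KD_NC against NC_NC. The medians in this order were 0.18, 0.25 and -0.09. Rises over all genes tested were 27.9%, 23.7% and 16.0% in these comparisons, and falls were 28.4%, 25.6% and 18.5%. CLK1, a nuclear kinase of SR proteins, averaged 79.4 ± 6.20 CPM in KD_OE, 56.3 ± 8.28 CPM in KD_NC and 40.7 ± 2.58 CPM in NC_NC (0.97 ± 0.111 in KD_OE against NC_NC, adjusted p = 5.08e-07). SRPK1, the mainly cytoplasmic kinase that loads SR proteins for import, averaged 99.1 ± 4.61 CPM in KD_OE, 110 ± 5.93 CPM in KD_NC and 172 ± 3.54 CPM in NC_NC (-0.79 ± 0.084, adjusted p = 1.71e-07). TNPO3, the importin of SR proteins, fell by 0.51 ± 0.087 on the log2 scale in the same comparison. With the GC and length correction 3 of this list rose and 5 fell in KD_OE against NC_NC (median -0.18), 3 rose and 3 fell in KD_OE against KD_NC (median 0.02), and none rose and 6 fell in KD_NC against NC_NC (median -0.24). CLK1 was then at 0.46 in KD_OE against NC_NC. Upper-quartile factors gave 7 rises in KD_OE against NC_NC, and without KD_NC replicate 3, 1 gene fell in KD_OE against KD_NC.

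Of 24 genes for SR-related proteins, 13 rose and 4 fell in KD_OE against KD_NC (median 0.31). Rises and falls numbered 10 and 7 in KD_OE against NC_NC (median 0.12), and 2 and 8 in KD_NC against NC_NC (median -0.15). Rises over all genes tested were 23.7%, 27.9% and 16.0% in this order of comparisons, and falls were 25.6%, 28.4% and 18.5%. CCNL1 and CCNL2 encode cyclins L, partners of CDK11 in splicing. CCNL1 averaged 442 ± 36.6 CPM in KD_OE, 228 ± 24.5 CPM in KD_NC and 189 ± 14.8 CPM in NC_NC, and rose by 0.95 ± 0.098 against KD_NC and 1.23 ± 0.098 against NC_NC. CCNL2 averaged 253 ± 7.40 CPM in KD_OE, 106 ± 2.31 CPM in KD_NC and 121 ± 1.21 CPM in NC_NC, and rose by 1.26 ± 0.079 against KD_NC. RNPS1, a link between splicing and the exon junction complex, fell by 0.73 ± 0.085 on the log2 scale in KD_OE against NC_NC. With the GC and length correction 8 rose and 12 fell in KD_OE against NC_NC (median -0.09), 1 rose and 14 fell in KD_NC against NC_NC, and CCNL1 was at 0.60 against NC_NC and 0.63 against KD_NC in KD_OE. The 8 falls in KD_NC against NC_NC became 5 without KD_NC replicate 2 or in a fit of those groups alone. The 2 rises there became 0 with the replicate block and without NC_NC replicate 2 or 3, and 1 without KD_OE replicate 2, KD_NC replicate 2, KD_NC replicate 3 or NC_NC replicate 1.

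Of 41 genes for other splicing regulators, 39 were tested, and 7 rose and 17 fell in KD_OE against NC_NC. Rises and falls numbered 9 and 14 in KD_OE against KD_NC, and 4 and 19 in KD_NC against NC_NC. The medians in this order were -0.12, -0.05 and -0.22. Over all genes tested, 27.9%, 23.7% and 16.0% rose and 28.4%, 25.6% and 18.5% fell in these comparisons. Among genes averaging at least 50 CPM, 45.8%, 40.3% and 30.2% fell. The 4 rises in KD_NC against NC_NC became 2 without NC_NC replicate 2 or 3 and with the GC and length correction. PTBP1, the polypyrimidine tract repressor, averaged 338 ± 19.6 CPM in KD_OE, 470 ± 36.4 CPM in KD_NC and 731 ± 20.8 CPM in NC_NC (-1.11 ± 0.087 in KD_OE against NC_NC, adjusted p = 3.34e-09). Its paralogue PTBP2, which PTBP1 is known to repress in non-neuronal cells, averaged 65.2 ± 7.25, 42.8 ± 8.73 and 28.8 ± 3.37 CPM in these groups (1.18 ± 0.137, adjusted p = 5.72e-07). ESRP1, the epithelial splicing regulator, averaged 371 ± 14.5 CPM in KD_OE and 235 ± 22.2 CPM in KD_NC (0.66 ± 0.088, adjusted p = 4.98e-06). RBM47, another epithelial RNA-binding protein, averaged 54.0 ± 1.21 CPM in KD_OE, 49.1 ± 2.54 CPM in KD_NC and 131 ± 6.6 CPM in NC_NC and fell in KD_OE (-1.28 ± 0.088) and in KD_NC (-1.41 ± 0.088) against NC_NC. TIA1, a U-rich binding protein of stress granules, rose by 1.01 ± 0.110 in KD_OE against NC_NC on the log2 scale, and shares 211 exon bases with C2orf42, which has 11.6% of its counts. After the GC and length correction PTBP2 was at 0.43 (adjusted p = 0.000494) and TIA1 at 0.50 (adjusted p = 8.13e-07) in KD_OE against NC_NC.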

How the data were processed

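Per the labels' protocols, RNA came from TRIzol extraction and an NEBNext Ultra kit, which does not mark strand, gave the libraries. The authors deposited raw counts of reads per gene for 9 libraries. The tools named, without roles, were featureCounts 1.5.0-p3, HISAT2 2.0.5 and StringTie 1.3.3b, with hg19 as build, per the submitters' processing notes, but the coordinates in the table equal GENCODE v29 on GRCh38 for all 58735 genes. No source used here gives the strand or multi-mapping settings. Genes were filtered with filterByExpr (at least 10 counts), scaled by TMM and tested in R 4.3.3 with edgeR 4.0.16 in 1 quasi-likelihood fit to the 9 libraries with 6 residual degrees of freedom. Benjamini-Hochberg adjustment ran over the 16812 genes tested. The labels do not say that replicates were separate cultures, so p-values measure the spread between these libraries of 1 line. A level of 3 counts was 0.152 to 0.198 CPM, covering counting error only. The fit was tested on simulated data with known changes, where false calls were somewhat more frequent than the threshold implies. Far fewer genes were changed there than were called in these data, so that frequency may not hold here. The alternatives were upper-quartile and RLE factors, DESeq2 1.42.0, no filter, a replicate block, a GC and length correction (mgcv 1.9.3), fits of 2 groups, and each library left out.

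The genes and lists were chosen with earlier results of these data known. Values per library are given for the called genes with the 4 largest rises and 4 largest falls per comparison at a mean of at least 5 CPM and for the muscleblind genes. Of each list, the called genes with the lowest adjusted p were eligible, up to 2 in each direction and comparison.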

Additional observations from a re-analysis of the deposited data

How the results depend on the processing

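Of the 16 alternatives, the correction for GC content and length was the only one counted as reversing a gene's direction. It turned 5 genes in KD_OE against NC_NC, to -0.59 for MBNL3, -0.34 for HNRNPLL, -0.32 for MBNL1, -0.25 for SRSF5 and -0.06 for SRSF6, and among the other splicing genes to -0.05 for LUC7L3 there and -0.03 for CCNL1 in KD_NC against NC_NC. With it, 2 genes were called higher in KD_OE against NC_NC, MBNL2 (1.69) and HNRNPUL2 (0.27), and the main fit did not call HNRNPUL2. The correction gave CAPN2 at -0.22 in KD_NC against NC_NC (adjusted p = 0.0116) and 0.15 in KD_OE against KD_NC (adjusted p = 0.0627). Upper-quartile factors, DESeq2 and no filter on low counts gave 2 genes called higher in KD_NC against NC_NC, the second being SRSF11. With no filter CAPN2 was 0.22 in KD_OE against KD_NC (adjusted p = 0.0871), and in KD_OE against NC_NC it was 0.21 with upper-quartile factors (adjusted p = 0.0278) and 0.12 in a fit of those groups alone (adjusted p = 0.0389). Upper-quartile factors moved the median of all genes in KD_OE against NC_NC to 0.13 and gave sums of 2418 CPM for SRSF genes in NC_NC and of 6018 CPM in KD_OE and 8917 CPM in NC_NC for hnRNP genes. With 1 library left out, 1 to 2 genes were called higher in KD_NC against NC_NC, 3 to 6 in KD_OE against KD_NC (3 without KD_OE replicate 1) and 3 to 4 in KD_OE against NC_NC, and CAPN2 in KD_OE against KD_NC was 0.21 to 0.28 (0.23 without KD_OE replicate 1, adjusted p = 0.0601). The causes were not tested.

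Deviations from the group means had correlations of -0.111 to 0.063 between same-numbered libraries and of -0.186 to 0.132 between differently numbered libraries of different groups. No pairing by number was seen, but 3 libraries per group are too few to settle it. With the replicate block 21, 24 and 27 genes were called in KD_NC against NC_NC, KD_OE against KD_NC and KD_OE against NC_NC. Over the 16 alternatives, gene by gene, 538, 546 and 547 values in these comparisons stayed on their side of the threshold. Without a change of sign, a call was gained in 15, 2 and 6 values and lost in 23, 28 and 18. In KD_OE against NC_NC, 5 more values were counted as reversed. Among these, MBNL3, HNRNPLL, MBNL1 and SRSF5 gained a call and SRSF6 lost its call. A change of sign was counted as a reversal only where the main fit or the alternative called the gene. Genes not called may therefore have changed sign. Low counts limit SRSF12, HNRNPA1P48 and HNRNPA1L2.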

Other observations

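A further list held 15 genes for proteins of the exon junction complex and of nonsense-mediated decay, the pathway that destroys transcripts of many autoregulated SR genes. Of these genes, 9 fell and 1 rose in KD_OE against NC_NC. There were 6 falls and 2 rises in KD_OE against KD_NC, and 8 falls and no rise in KD_NC against NC_NC. The medians in this order were -0.32, 0.10 and -0.25. Over all genes tested, 28.4%, 25.6% and 18.5% fell and 27.9%, 23.7% and 16.0% rose in these comparisons. Among genes averaging at least 50 CPM, 45.8%, 40.3% and 30.2% fell, so the falls of the list in KD_OE against KD_NC were near that share. In KD_OE against KD_NC the median of the 15 genes was above 0 although more of them fell than rose. That median was -0.09 with the GC and length correction. The 2 rises there became 0 without KD_OE replicate 1, 1 without KD_NC replicate 3 and 4 without KD_NC replicate 1. EIF4A3, the helicase that anchors the junction complex, averaged 152 ± 7.12 CPM in KD_OE, 235 ± 22.2 CPM in KD_NC and 283 ± 12.8 CPM in NC_NC, and fell in KD_OE against NC_NC (-0.90 ± 0.089, adjusted p = 7.4e-08). UPF1, the central helicase of decay, averaged 119 ± 5.04 CPM in KD_OE, 146 ± 11.4 CPM in KD_NC and 208 ± 13.6 CPM in NC_NC, and fell in KD_NC against NC_NC (-0.51 ± 0.088, adjusted p = 0.000198; -0.28 with the GC and length correction). UPF2 was called higher in KD_OE than in NC_NC (0.38 ± 0.126, adjusted p = 0.0156), and its value was 0.10 with the GC and length correction (adjusted p = 0.427), 0.33 without KD_OE replicate 1 (adjusted p = 0.0728) and 0.24 without NC_NC replicate 2 (adjusted p = 0.135).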
